A study of Mus musculus with 24 samples.

Results

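The 10 genes described here encode RNA-binding proteins that set which exons are kept in a given tissue. They were followed through mouse embryonic stem cells (mESC) and neural progenitor cells (NPC) that differ in the Huntington's disease gene Htt. The members were chosen by symbol: Ptbp1 and Ptbp2 (polypyrimidine tract binding proteins), Rbfox2, Nova1, Mbnl1 and Mbnl2 (muscleblind), Celf1 and Celf2, Srrm4 and Esrp1. All 10 of the 10 genes were listed in the mESC table, which holds 17501 genes. In the NPC table, which holds 16024 genes, 9 of the 10 were listed, since Esrp1 had no entry. A filter on low values (at least 1 CPM in at least 2 libraries) was passed by all 10 in mESC and by 8 in NPC, where Srrm4 stayed below it.

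The series holds 24 libraries from bulk RNA, 12 per cell type and 2 for each of 6 genotypes. WT cells carry no knock-in at Htt, and KO cells are labelled as Htt knockouts. The knock-in lines, called Q20, Q50, Q92 and Q111, are heterozygous for an Htt allele with 20, 50, 92 or 111 CAG repeats. The growth protocol gives 89 in place of 92 for the third line. Stem cells grew with serum and leukemia inhibitory factor on irradiated mouse fibroblasts as feeders. NPC were derived from mESC in serum-free N2B27 medium and then expanded on laminin with FGF and EGF. Each CAG length is carried by 1 line per cell type in these labels, so a length and the line that carries it cannot be told apart. The design text calls both libraries of a group biological samples without naming separate cultures, and p-values below measure only the spread between these libraries.

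As background, each of these proteins binds short motifs in pre-mRNA near an exon and promotes or blocks its inclusion, often depending on which side of the exon it binds. PTBP1 holds back neuronal exons in non-neuronal and progenitor cells, and PTBP2 is the paralog that takes its place as neurons form. RBFOX proteins bind UGCAUG, NOVA proteins bind YCAY clusters, and muscleblind and CELF proteins act on many of the same exons, frequently in opposite directions. SRRM4 activates neuronal microexons, and ESRP1 drives the epithelial pattern of splicing. Muscleblind proteins are also known to bind expanded CUG and CAG repeat RNA.

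PTBP and MBNL paralogs are known to regulate exons within their own and each other's transcripts, and 2 such exons are shown because the paralog balance below is read from totals per gene, which do not measure their inclusion. In GENCODE M21 (GRCm38), a 34-base exon is shared by Ptbp1 (chr10:79862014-79862047, plus strand) and Ptbp2 (chr3:119724612-119724645, minus strand). In each gene the 2 annotated transcripts that skip it are classed as targets of nonsense-mediated decay. The paralogous exons are identical at 26 of 34 bases (76.5%), and capitals mark the identical bases.
Ptbp1 exon: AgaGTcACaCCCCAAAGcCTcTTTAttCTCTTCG
Ptbp2 exon: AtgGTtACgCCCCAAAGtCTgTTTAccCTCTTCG

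A 54-base exon, which keeps the reading frame, is shared by Mbnl1 (chr3:60614683-60614736, plus strand) and Mbnl2 (chr14:120395712-120395765, plus strand). It is skipped in 5 annotated Mbnl1 transcripts and 3 annotated Mbnl2 transcripts, none of them classed as a decay target. The exons of both genes are identical at 46 of 54 bases (85.2%), again in capitals.
Mbnl1 exon: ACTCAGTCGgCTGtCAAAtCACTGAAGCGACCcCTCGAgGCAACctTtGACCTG
Mbnl2 exon: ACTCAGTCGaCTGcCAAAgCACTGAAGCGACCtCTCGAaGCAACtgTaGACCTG

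The number of reads recovered per library ran from 58546211 to 81502284 in mESC and from 48525333 to 118038952 in NPC. Htt itself stood at 124 and 113 CPM in the mESC WT libraries and at 139 and 68.5 in the libraries labelled KO 1 and KO 2. The library labelled KO 1 was thus not lower than WT, and directions drawn from mESC KO rest on its label. In NPC, Htt was 137 and 177 CPM in WT against 100.1 and 94.9 in KO (log2 change -0.67, SE 0.14, limma adjusted p = 0.0673). Pluripotency markers summed to between 2035 and 3800.1 CPM in mESC, where 7 of 8 were listed, and to between 2.86 and 105 CPM in NPC, where 5 of 8 were listed. The sum of 8 neural progenitor markers ran from 50.5 to 279 CPM in mESC and from 3100.5 to 6996 CPM in NPC. Sox2, a defining marker of both cell types, was in neither table.

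The NPC Q20 libraries stood apart in some of these markers. Both lay above all other NPC libraries for 3 of 5 pluripotency, 3 of 4 epithelial and 5 of 8 neuron markers listed. The pluripotency markers Esrrb (0.721 and 0.751 CPM in Q20) and Klf2 (0.770 and 0.836) did not. Pou5f1, a defining pluripotency factor, was at 90.1 and 87.4 CPM in Q20 and at most at 0.405 CPM in the other NPC libraries. Nanog was at 13.0 and 13.7 CPM against at most 1.63, and the epithelial genes Epcam (22.1 and 23.5) and Cdh1 (12.9 and 12.9) against at most 0.238 and 1.35. The neuron markers Stmn2, Dcx and Tubb3 were also highest there among NPC libraries. Stmn2 and Tubb3 were present in mESC too, at medians of 286 and 98.3 CPM. Map2 (599 and 646 CPM) and Gap43 (52.0 and 51.4), from the same marker list, were lowest in Q20. The part of these markers in the Q20 values was not tested, and the results over the NPC knock-in lines are therefore given with and without both Q20 libraries, an alternative chosen after seeing the data.

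Levels are CPM as deposited, in a table normalised separately for each cell type, so differences between mESC and NPC are described and were not tested. In bulk RNA, fewer cells of a type and less RNA per cell cannot be told apart. The ranges of the 12 mESC and 12 NPC libraries were apart for 5 genes: Ptbp1, Ptbp2, Nova1, Mbnl1 and Celf2. Ptbp1 was higher in mESC, and the other 4 were higher in NPC.

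**Figure D1:**
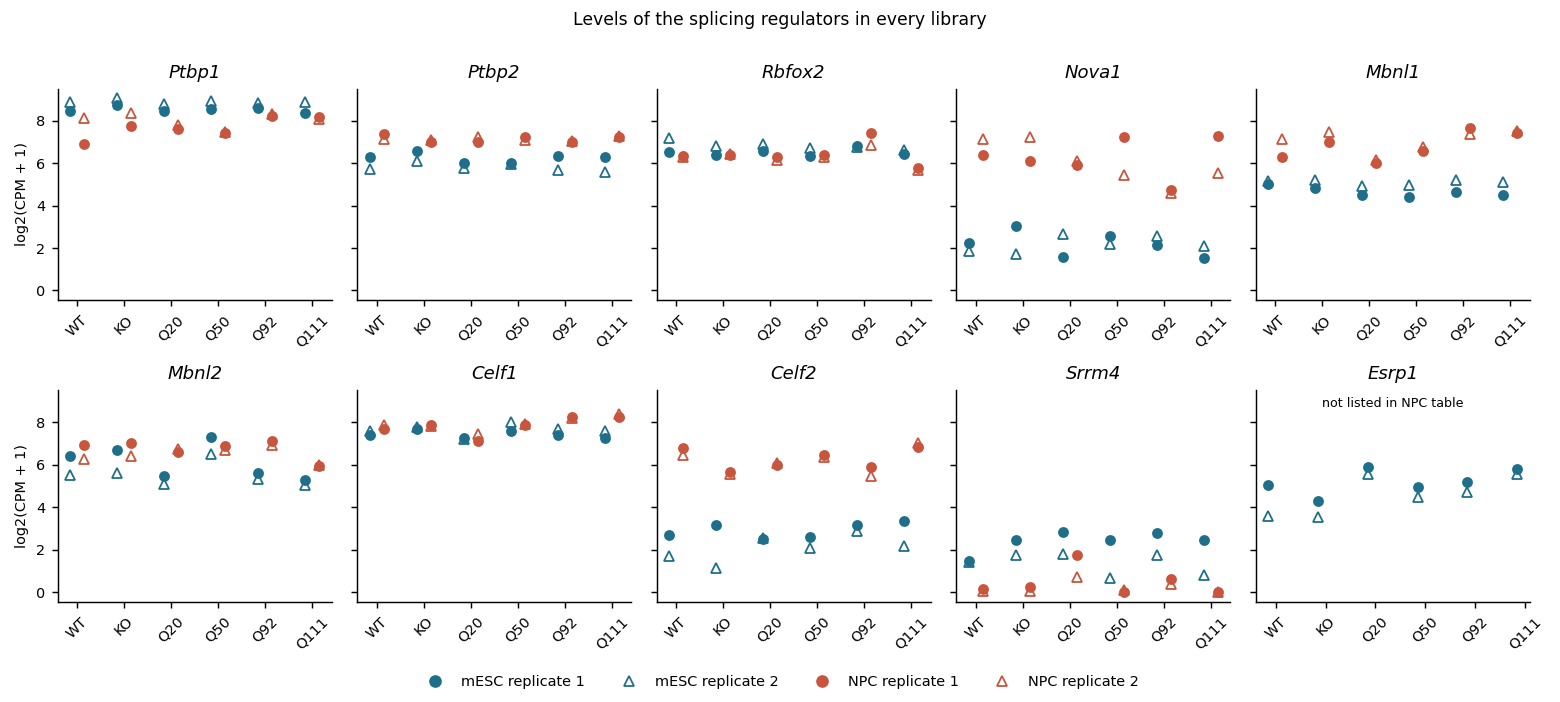
Level of each regulator as log2(CPM + 1) in the 24 libraries, by genotype, with mESC in blue, NPC in red, replicate 1 as filled circles and replicate 2 as open triangles. Nova1 and Celf2 show the widest gaps between cell types, and the NPC points of Srrm4 lie near 0.

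Ptbp1 (chromosome 10, 79854427 to 79864771) was the most abundant member per kb of exon in both cell types. In mESC its CPM was 352 and 470.4 in WT, 428 and 534 in KO, 346 and 436 in Q20, 378 and 481 in Q50, 389 and 453 in Q92, and 330.2 and 475 in Q111, replicate 1 first. The second library was the higher one in all 6 genotypes. In NPC it was 118 and 283 in WT, 216 and 327 in KO, 194 and 224 in Q20, 171 and 177 in Q50, 295 and 313 in Q92, and 288 and 266 in Q111. The WT libraries were 118 and 283, so WT spanned nearly the whole NPC range and overlapped every other group except Q92, which lay above it. Exons of Ptbp1 overlap those of Plppr3 and 2 other genes on the other strand over 983 bases, and whether the counting used strand is not given in the sources used here.

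Ptbp2 (chromosome 3, 119718742 to 119784466) had a median of 63.4 CPM in mESC (46.6 to 94.8) and 139 CPM in NPC (125 to 163). Among NPC libraries it was the least variable member, with an SD of 0.12 on the log2(CPM + 1) scale. Its NPC values were 163 and 142 in WT, 125 and 136 in KO, 128 and 149 in Q20, 150.5 and 135 in Q50, 126 and 131 in Q92, and 149 and 153 in Q111. The KO pair lay below the WT pair, at a log2 change of -0.21 (SE 0.13, limma adjusted p = 0.553).

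The balance of the pair was read as CPM per kb of exon (the union of annotated exons). Ptbp1 exceeded Ptbp2 in all 24 libraries. The ratio of Ptbp1 to Ptbp2 was 8.26 to 19.7 in mESC (median 13.2) and 1.40 to 4.66 in NPC (median 3.36). On the log2 scale the median of Ptbp2 over Ptbp1 was -3.71 in mESC and -1.75 in NPC. The lowest NPC ratio was WT replicate 1, at 1.40, while WT replicate 2 stood at 3.87. In every mESC genotype the ratio was larger in replicate 2, for instance 19.7 against 8.26 in Q111 and 17.4 against 8.77 in WT.

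**Figure D2:**
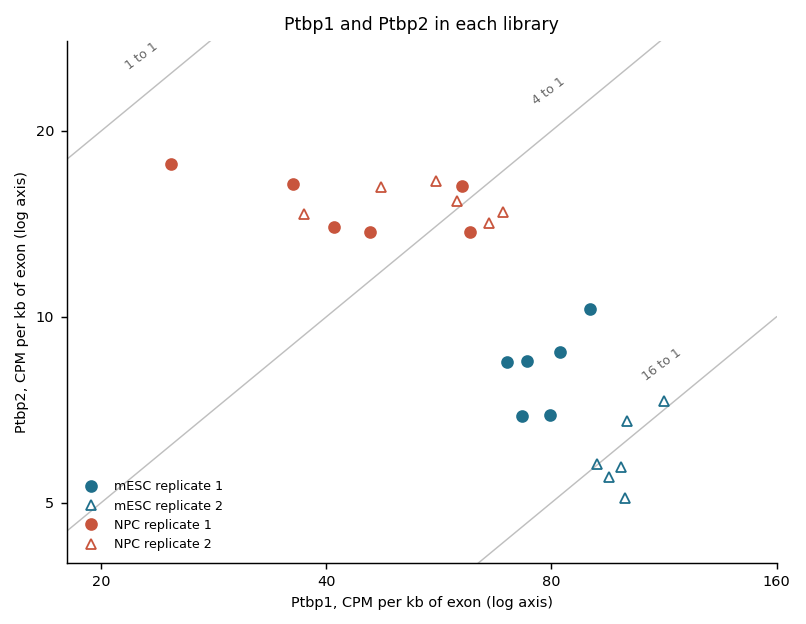
Ptbp1 against Ptbp2 in CPM per kb of exon, both on log axes, with mESC libraries in blue, NPC in red and grey lines of constant ratio. The NPC libraries lie between ratios of 1.40 and 4.66, and the mESC libraries between 8.26 and 19.7, with replicate 2 (triangles) at the larger ratios.

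Rbfox2 (chromosome 15, 77078990 to 77307004) differed little between cell types, with medians of 102 CPM in mESC (79.9 to 146) and 79.1 CPM in NPC (50.0 to 169.5). In NPC it was 80.6 and 77.4 in WT, 82.1 and 86.2 in KO, 77.6 and 70.9 in Q20, 83.8 and 76.9 in Q50, 169.5 and 116 in Q92, and 53.6 and 50.0 in Q111. Both Q92 libraries lay above all other NPC libraries and both Q111 libraries below all others.

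Nova1 (chromosome 12, 46694517 to 46818929), a neuronal splicing regulator, had a median of 3.52 CPM in mESC (1.92 to 7.32) and 67.9 CPM in NPC, a ratio of 19.3 between medians. Its NPC values were 82.1 and 139 in WT, 68.2 and 148 in KO, 59.6 and 67.7 in Q20, 150.0 and 42.5 in Q50, 25.4 and 22.8 in Q92, and 153 and 45.8 in Q111. Libraries of one genotype differed widely: replicate 2 minus replicate 1 was -1.80 on the log2(CPM + 1) scale in Q50, -1.72 in Q111 and 1.11 in KO. Nova1 had the largest SD of the 8 tested members in NPC (0.95). Its exons share 310 bases with those of Gm33869 on the same strand, and reads there could count for either gene.

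Mbnl1 (chromosome 3, 60472830 to 60629750) had medians of 29.8 CPM in mESC (20.3 to 36.1) and 134 CPM in NPC, a ratio of 4.48. In NPC it was 78.1 and 139.7 in WT, 128 and 179 in KO, 62.7 and 69.7 in Q20, 95.5 and 109 in Q50, 198 and 164 in Q92, and 170.1 and 180.1 in Q111. Among the knock-in lines the Q20 pair was lowest, the Q50 pair next, and the Q92 and Q111 pairs overlapped each other above both, while WT replicate 1 lay between the Q20 and Q50 pairs.

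Mbnl2 (chromosome 14, 120275669 to 120431697) had medians of 46.5 CPM in mESC and 104 CPM in NPC, with ranges that overlapped. In mESC it was 83.4 and 45.5 in WT, 104 and 47.5 in KO, 43.9 and 33.8 in Q20, 156 and 91.2 in Q50, 48.8 and 38.8 in Q92, and 38.6 and 32.4 in Q111. The Q50 pair overlapped KO but lay above WT and the other knock-in lines. In NPC it was 121 and 75.5 in WT, 131 and 83.8 in KO, 97.8 and 105 in Q20, 117 and 104 in Q50, 138 and 121 in Q92, and 61.4 and 62.0 in Q111, the lowest pair.

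Celf1 (chromosome 2, 90940382 to 91019497), which in muscle is known as an antagonist of muscleblind, had similar medians of 191 CPM in mESC (149 to 256) and 234 CPM in NPC (138 to 332). Its NPC values were 203 and 234 in WT, 232 and 228 in KO, 138 and 175 in Q20, 235 and 241 in Q50, 305 and 293 in Q92, and 305 and 332 in Q111. Both Q20 libraries lay below all others, Q50 lay near WT and KO, and Q92 and Q111 lay above the rest.

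Celf2 (chromosome 2, 6539694 to 7509563) had a median of 5.05 CPM in mESC (1.17 to 9.24) and 75.0 CPM in NPC, a ratio of 14.9. In NPC it was 109.7 and 88.2 in WT, 49.3 and 47.0 in KO, 63.8 and 67.5 in Q20, 88.4 and 82.5 in Q50, 58.4 and 44.1 in Q92, and 114 and 128 in Q111. The KO and Q92 libraries were the lowest 4, and the Q111 libraries were the highest 2. Exons of Gm26565 on the other strand overlap 1961 bases of Celf2 exons.

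Srrm4 (chromosome 5, 116439275 to 116591817) was low throughout, with a median of 2.41 CPM in mESC (0.568 to 6.18). In NPC its highest values were 2.32 and 0.643 CPM in Q20, and it was listed at 0 in Q50 replicate 1 and both Q111 libraries. A count of 0 there allows up to 0.0580, 0.0406 and 0.0425 CPM in that order, which covers counting error only. Its reads over the 12 NPC libraries came to 341 in all. Esrp1 (chromosome 4, 11331933 to 11386783) was measured in mESC, at 32.6 and 11.2 CPM in WT, 18.5 and 10.6 in KO, 59.1 and 46.4 in Q20, 29.9 and 21.2 in Q50, 35.8 and 25.3 in Q92, and 55.4 and 47.0 in Q111. The Q20 and Q111 pairs lay above all other mESC libraries. Epithelial markers, 6 genes including Cdh1 and Epcam, summed to 491 to 580.0 CPM in WT, 475 to 664 in KO, 856 to 1188 in Q20, 772 to 862 in Q50, 708 to 749 in Q92 and 693 to 985 in Q111, and their part in the Esrp1 values was not tested.

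Per kb of exon, the order of median levels in mESC was Ptbp1 (91.1 CPM per kb), Celf1 (22.6), Rbfox2 (12.5), Ptbp2 (6.91), Esrp1 (4.96), Mbnl2 (3.88), Mbnl1 (1.59), Nova1 (0.403), Srrm4 (0.278) and Celf2 (0.195). Neighbours in this order had overlapping ranges except at 3 steps, from Ptbp1 to Celf1, from Mbnl2 to Mbnl1 and from Mbnl1 to Nova1. In NPC the order was Ptbp1 (51.7 CPM per kb), Celf1 (27.7), Ptbp2 (15.1), Rbfox2 (9.72), Mbnl2 (8.71), Nova1 (7.76), Mbnl1 (7.14), Celf2 (2.90) and Srrm4 (0.0108). There only Srrm4 lay apart from its neighbour, and the ranges of Mbnl1, Mbnl2, Nova1 and Rbfox2 all overlapped one another.

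Genotypes were compared on the log2(CPM + 1) scale by limma, in a fit to every gene that passed the filter, and genes whose Benjamini-Hochberg adjusted p was under 0.05 count as called. On this scale the changes of low genes such as Srrm4 are understated. The comparisons with Q20 share its 2 libraries, as those with WT share theirs, so their values are given side by side and not correlated.

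In mESC no member was called in any comparison of genotypes by the main fit, which held no term for replicate number. The replicate numbers were taken to pair the mESC libraries, and calls with that term are given below. For KO against WT, where 0.0144% of 13916 genes were called, the members' median change was 0.21 against 0.01 over all genes, and 0 of 10 had an unadjusted p under 0.05. For Q20 against WT 0.323% of all genes were called and 1 member had an unadjusted p under 0.05. For Q50 against Q20 the background was 0.00719%, with 2 such members, for Q92 against Q20 it was 0.00719%, with 0, and for Q111 against Q20 it was 0%, with 0. A test for any difference among the knock-in lines called 0.0719% of all genes and 0 members (1 at an unadjusted p under 0.05), and the trend over CAG length called 0% of all genes and 0 members (0 at an unadjusted p under 0.05). The edgeR quasi-likelihood test on recovered reads, also without a term for replicate number, called 0 members in each of these.

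The largest mESC changes belonged to Esrp1 and Mbnl2, and both were called once the replicate number was a term in the fit. Esrp1, the epithelial regulator, was 1.40 higher in Q20 than in WT (SE 0.47, limma adjusted p = 0.264), and with the replicate block its SE was 0.28 and its adjusted p 0.0253. Mbnl2 was 1.60 higher in Q50 than in Q20 (SE 0.43, limma adjusted p = 0.512), and with the block its SE was 0.22 and its adjusted p 0.0356. With the block the test for any difference among the knock-in lines also called Mbnl2 (adjusted p = 0.0308, against 0.535 without it). Shares of all genes called with the block are not given, so these calls have no background beside them. Celf1 in Q50 against Q20 had a change of 0.55 (SE 0.20) and a limma adjusted p of 0.690. With the block its SE was 0.13 and its limma adjusted p 0.0934, still not called.

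The replicate number itself separated the mESC libraries. Comparing number 2 with number 1 across the 6 genotypes, 8 of 10 members were called, where 43.3% of all genes were. Ptbp1, Rbfox2 and Mbnl1 were higher in number 2, and Ptbp2, Mbnl2, Celf2, Srrm4 and Esrp1 were lower. Ptbp1 was higher by 0.36 (SE 0.06, limma adjusted p = 0.00188), in 6 of 6 genotypes. Its paralog Ptbp2 fell by 0.45 (SE 0.10, limma adjusted p = 0.0101), in 6 of 6 genotypes. Mbnl1 was higher by 0.45 (SE 0.09, limma adjusted p = 0.00543) in 6 of 6, while its paralog Mbnl2 was lower in 6 of 6, at -0.61 (SE 0.13, limma adjusted p = 0.00708). Esrp1 was lower in 6 of 6 genotypes, at -0.63 (SE 0.16, limma adjusted p = 0.0168).

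Srrm4 was lower in 6 of 6, at -1.05 (SE 0.23, limma adjusted p = 0.00780), Celf2 in 5 of 6, at -0.83 (SE 0.26, limma adjusted p = 0.0365), and Rbfox2 was higher in 5 of 6, by 0.32 (SE 0.10, limma adjusted p = 0.0325). Celf1 had a change of 0.21 (SE 0.07, limma adjusted p = 0.0514) and Nova1 of 0.00 (SE 0.30, limma adjusted p = 0.992). With the knock-in libraries alone, 5 members were called, and Ptbp2, Rbfox2 and Celf2 were not. Of 5 listed genes from the astrocyte marker list, Aldoc, a glycolytic enzyme, made up nearly all of the sum (10.4 to 69.0 CPM in mESC), while Gfap, Aqp4, S100b and Sox9 reached at most 1.57, 1.27, 1.20 and 1.29 CPM. Aldoc was higher in number 1 in every genotype, for instance 68.0 against 12.9 CPM in WT and 53.9 against 20.9 in Q111, and its part in these differences was not tested. In NPC the same comparison called 0 of 8 members (0 at an unadjusted p under 0.05, and 0 with edgeR) and 0% of all genes.

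**Figure D3:**
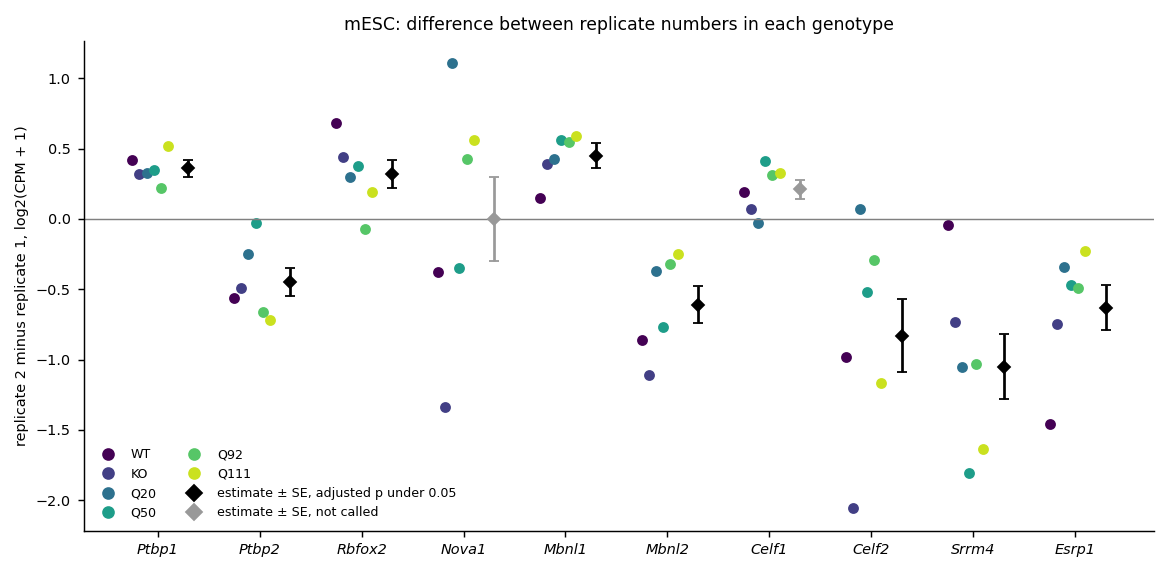
Difference between mESC replicate 2 and replicate 1 on the log2(CPM + 1) scale for each regulator, with 1 coloured point per genotype and the limma estimate ± SE as a diamond, black where called. All 6 genotypes lie above 0 for Ptbp1 and Mbnl1 and below 0 for Ptbp2, Mbnl2, Srrm4 and Esrp1.

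In NPC, Celf2 was the 1 of 8 tested members called between KO and WT, where 1.42% of 13206 genes were called. It stood at 49.3 and 47.0 CPM in KO against 109.7 and 88.2 CPM in WT, a log2 change of -1.02 (SE 0.17, limma adjusted p = 0.0303), and the groups did not overlap. The call was lost with edgeR (adjusted p = 0.0505), in a fit to the KO and WT libraries alone (0.772), and without WT replicate 1, KO replicate 1 or KO replicate 2 (0.0812, 0.0881 and 0.0946). Without WT replicate 2, Ptbp1 (1.17, adjusted p = 0.0217) and Mbnl1 (0.94, adjusted p = 0.0367) were called beside it. Number 2 minus number 1 differed in the same direction in WT and KO for Ptbp1 (1.26 and 0.59 on the log2 scale), Nova1 (0.75 and 1.11), Mbnl1 (0.83 and 0.49) and Mbnl2 (-0.67 and -0.64). The members' median change was 0.08, and that of all genes 0.03.

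For Q20 against WT 14.5% of all genes were called, and among the members Celf1 alone was (1 of 8). Its Q20 values of 138 and 175 CPM lay below the 203 and 234 CPM of WT, a change of -0.48 (SE 0.14, limma adjusted p = 0.0482). Celf2 was close to the threshold at -0.58 (SE 0.17, limma adjusted p = 0.0565), and Mbnl1 was at -0.65 (SE 0.27, limma adjusted p = 0.167). The Celf1 call ended under 6 of 11 alternatives, including edgeR (adjusted p = 0.0625) and the fits without WT replicate 2 (0.124) or Q20 replicate 1 (0.295). The members' median change was -0.31, and that of all genes -0.02.

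Against Q20, the longer alleles were set in turn. For Q50, 18.8% of all genes and 1 of 8 members were called: Celf1 was higher by 0.61 (SE 0.14, limma adjusted p = 0.0156). For Q92, 25.8% of all genes and 3 of 8 members were called, all higher. Mbnl1 was higher by 1.43 (SE 0.27, limma adjusted p = 0.00616), Celf1 by 0.94 (SE 0.14, limma adjusted p = 0.00158) and Rbfox2 by 0.91 (SE 0.18, limma adjusted p = 0.00680). For Q111, 28.3% of all genes and 3 of 8 members were called, all higher. Celf1 was higher by 1.03 (SE 0.14, limma adjusted p = 0.00106), Mbnl1 by 1.39 (SE 0.27, limma adjusted p = 0.00728) and Celf2 by 0.87 (SE 0.17, limma adjusted p = 0.00728).

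Against Q20 the median change over members was 0.22 in Q50, 0.44 in Q92 and 0.40 in Q111, beside 0.00, 0.06 and 0.03 over all genes. Rbfox2 was 0.91 higher in Q92 and had a value of -0.51 in Q111 (SE 0.18, limma adjusted p = 0.0600). Mbnl2 had values of 0.34 in Q92 (limma adjusted p = 0.348) and -0.71 in Q111 (SE 0.26, limma adjusted p = 0.0704). Celf2 had -0.36 in Q92 (limma adjusted p = 0.145) beside its 0.87 in Q111. Nova1 had -1.36 in Q92 with an SE of 0.70 (limma adjusted p = 0.184). Ptbp2 stayed between -0.11 and 0.13 in the 3 comparisons, with an SE of 0.13.

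The choice of reference changed these counts. With WT in place of Q20, 0 members were called in Q50, 2 in Q92 and 1, Celf1, in Q111. Shares of all genes called are not given for these fits with WT. In Q92 the call of Rbfox2 held (0.82, adjusted p = 0.0273), those of Celf1 (0.45, adjusted p = 0.0778) and Mbnl1 (0.78, adjusted p = 0.114) were lost, and Celf2 was called as lower (-0.94, adjusted p = 0.0143). The change of Celf1 in Q111 was then 0.55 (adjusted p = 0.0308), and that of Mbnl1 was 0.74 (adjusted p = 0.0962). Single libraries mattered as well. Without Q20 replicate 1 the calls fell to 0 members in Q50 (Celf1 adjusted p = 0.116) and 1, Celf1, in Q111. They fell to 0 in Q50 without either Q50 library (Celf1 adjusted p = 0.0719 and 0.0841), and to 1, Celf1, in Q111 without Q111 replicate 2. Mbnl1 in Q111 then had an adjusted p of 0.0506, and in Q92 without Q92 replicate 1 it had 0.0514.

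**Figure D4:**
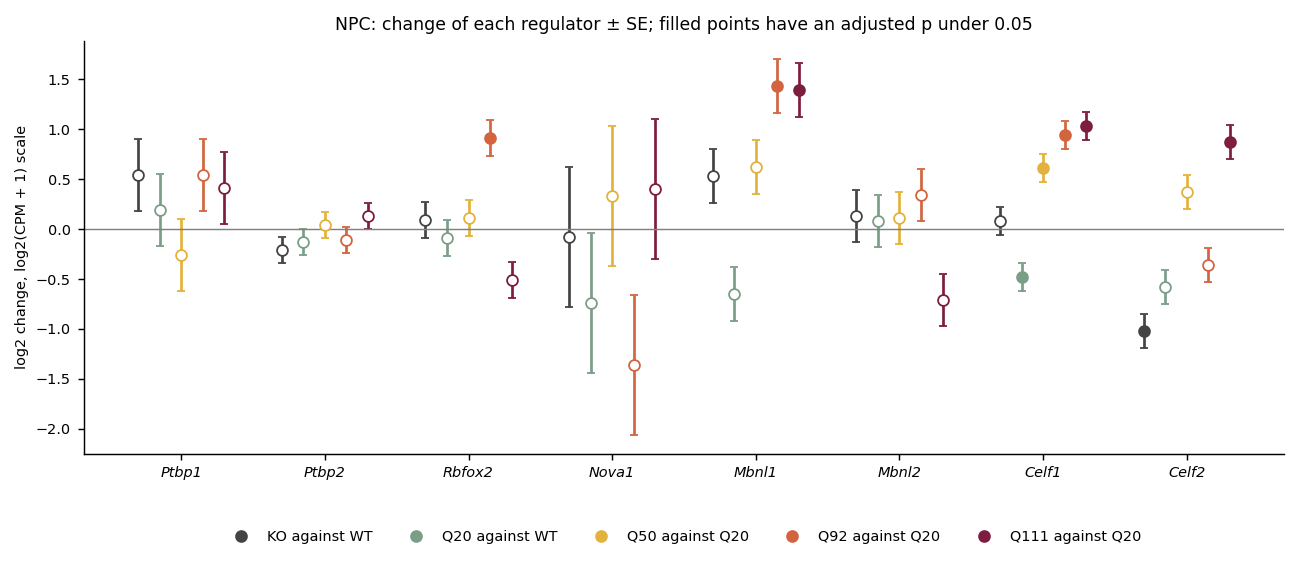
Change of each of the 8 tested regulators in NPC in 5 comparisons, as the limma log2 change ± SE, filled where the adjusted p was under 0.05. Celf1 and Mbnl1 lie above 0 in Q50, Q92 and Q111 against Q20, and Celf2 is at -1.02 in KO against WT.

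A test for any difference among the 4 NPC knock-in lines called 5 of 8 members, where 41.0% of all genes were called. They were Rbfox2 (adjusted p = 0.00222), Mbnl1 (0.00896), Mbnl2 (0.0419), Celf1 (0.00198) and Celf2 (0.00323) with limma. Ptbp1 (0.241), Ptbp2 (0.435) and Nova1 (0.172) were not called. Mbnl2 kept its call in 4 of 15 alternatives and lost it without any 1 of the 8 libraries (adjusted p = 0.0725 to 0.165), and Mbnl1 lost it without Q20 replicate 1 (adjusted p = 0.0509). Among the 3 longer lines, without both Q20 libraries, 2 of 8 members were called, where 21.1% of all genes were. They were Rbfox2 (adjusted p = 0.00568) and Celf2 (0.00909), while Mbnl1 (0.117), Mbnl2 (0.0591) and Celf1 (0.0776) were not called.

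The trend over CAG length was fitted to the 8 NPC knock-in libraries and is given as the log2 change over the 91 repeats from 20 to 111. It called 22.0% of all genes and 2 of 8 members, both rising. Mbnl1 rose by 1.48 (SE 0.17, limma adjusted p = 0.00148), with group means in the order Q20, Q50, Q111 and Q92. Celf1 rose by 0.99 (SE 0.16, limma adjusted p = 0.00481), and its group means rose at each step of length. Ptbp1 was at 0.63 (SE 0.21, limma adjusted p = 0.0640). Without both Q20 libraries, on the same scale of 91 repeats, 14.2% of all genes and 3 of 8 members were called. Mbnl1 was at 1.26 (SE 0.27, limma adjusted p = 0.0338), Celf1 at 0.64 (SE 0.15, limma adjusted p = 0.0396) and Ptbp1 at 1.11 (SE 0.27, limma adjusted p = 0.0460).

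The remaining slopes were Celf2 at 0.39 (SE 0.41), Ptbp2 at 0.04 (SE 0.13), Rbfox2 at -0.04 (SE 0.48), Nova1 at -0.39 (SE 0.83) and Mbnl2 at -0.44 (SE 0.33). The members' median slope was 0.21, and that of all genes 0.04. With 1 mean value per line, which leaves 4 points, neither gene was called (adjusted p = 0.295 for Mbnl1 and 0.307 for Celf1). The sum of astrocyte markers, of which 5 of 6 were listed, also moved with length in these lines. It was 1435 to 1603 CPM in Q20, 970.1 to 1143 in Q50, 378 to 396 in Q92 and 175 to 179.6 in Q111, with Gfap under 1 CPM in Q92. Most of it was Aldoc (1091 to 1244 CPM in Q20 and 97.4 to 102 in Q111). Aqp4 went from 247 to 253 CPM in Q20 to 2.80 to 2.92 in Q111, while Sox9 stood at 51.3 and 59.1 CPM in Q20 and 68.6 and 69.7 in Q111. Gfap and S100b did not fall at each step. Gfap stood at 43.1 and 27.8 CPM in Q20, 72.9 and 35.3 in Q50, 0.182 and 0.0938 in Q92, and 2.82 and 2.44 in Q111. S100b stood at 11.7 and 9.27, 21.9 and 15.7, 0.561 and 2.02, and 3.09 and 2.85 CPM in the same order. The sum of 8 feeder fibroblast markers was 444 to 461 CPM in Q20, 1038 to 1069 in Q50, 7.56 to 9.85 in Q92 and 98.4 to 99.3 in Q111, where 6 of the 8, Col1a1 among them, were under 1 CPM in Q92 and Q111. The part of either in the Mbnl1 and Celf1 slopes was not tested.

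**Figure D5:**
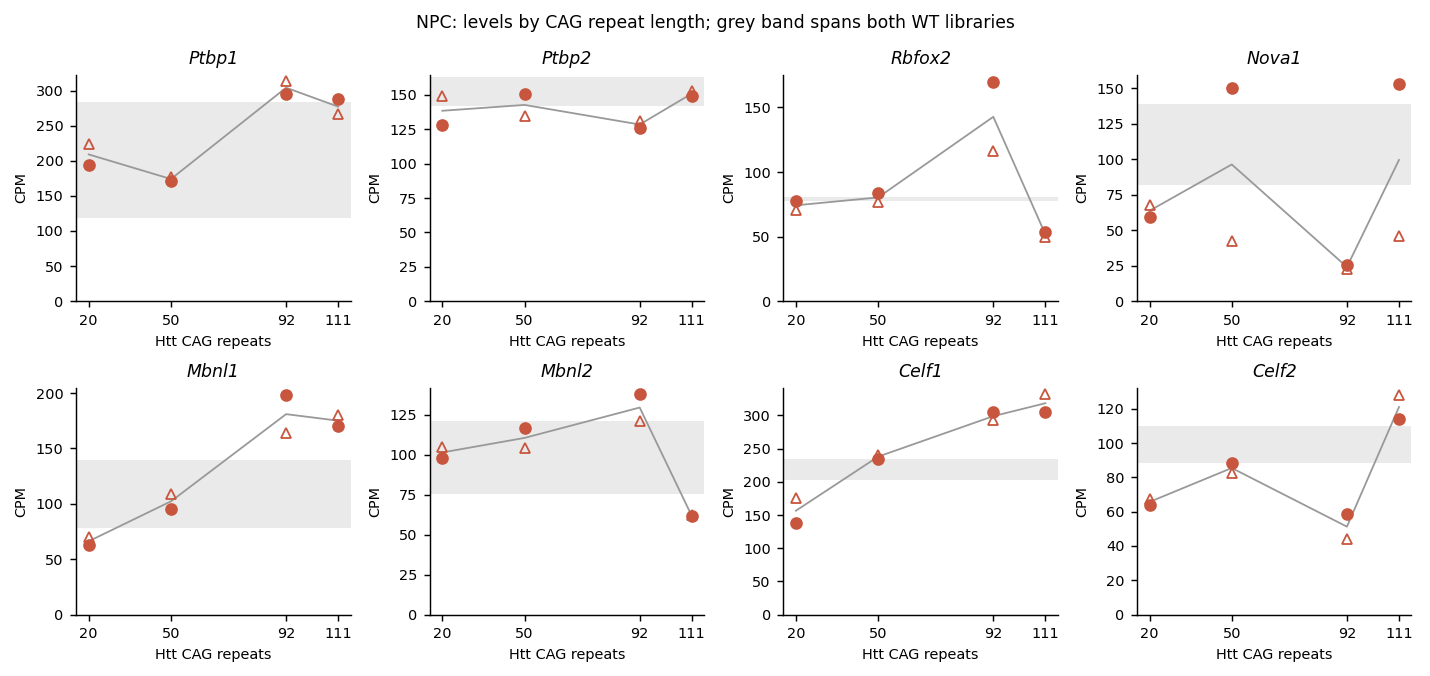
CPM of 8 regulators in the NPC knock-in libraries against the number of Htt CAG repeats, with replicate 1 as filled circles, replicate 2 as open triangles, a line through the means and a grey band spanning the WT libraries. Celf1 rises from 138 and 175 CPM at 20 repeats to 305 and 332 CPM at 111, while Rbfox2 and Mbnl2 peak at 92 repeats and are lowest at 111.

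Whether the slope differed between cell types was tested in a model of the 16 knock-in libraries of both tables, over 12321 genes. The difference was called for 4.86% of them and for 1 of 8 members. Mbnl1 had a slope of 0.18 in mESC (SE 0.29) and 1.48 in NPC, a difference of 1.30 (SE 0.34, limma adjusted p = 0.0395). With the replicate block the adjusted p was 0.00511, and the call was lost in 12 of 24 alternatives. Of these, 9 left out 1 library, namely mESC Q20 2, Q50 2, Q92 1 or Q111 1 or NPC Q20 1, Q20 2, Q92 1, Q92 2 or Q111 2, with adjusted p between 0.0569 and 0.120. Celf1 had slopes of 0.09 in mESC and 0.99 in NPC, a difference of 0.90 (SE 0.30, limma adjusted p = 0.0981). Without both NPC Q20 libraries 0 of 8 members were called (2 at an unadjusted p under 0.05), beside 4.19% of all genes, and Mbnl1 had a difference of 1.07 (SE 0.47, limma adjusted p = 0.234).

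Promoter sequences were read for the members that rose together over CAG length, from the RefSeq promoter table (GRCm38.p6), which matched 8 of the 10 members. The 250 bases before the start site are shown for Celf1 (chr2:90940147-90940396, plus strand) and for the second of the Mbnl1 promoters listed (chr3:60500929-60501178, plus strand). Capitals mark the letters GGGCGG or its reverse complement CCGCCC, the GC box bound by SP-family factors, with overlapping matches run together.
Celf1 promoter: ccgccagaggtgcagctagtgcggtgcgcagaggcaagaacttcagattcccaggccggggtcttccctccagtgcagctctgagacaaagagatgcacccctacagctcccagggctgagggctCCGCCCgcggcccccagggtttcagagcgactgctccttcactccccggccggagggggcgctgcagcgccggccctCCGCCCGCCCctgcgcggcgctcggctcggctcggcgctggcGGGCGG
Mbnl1 promoter: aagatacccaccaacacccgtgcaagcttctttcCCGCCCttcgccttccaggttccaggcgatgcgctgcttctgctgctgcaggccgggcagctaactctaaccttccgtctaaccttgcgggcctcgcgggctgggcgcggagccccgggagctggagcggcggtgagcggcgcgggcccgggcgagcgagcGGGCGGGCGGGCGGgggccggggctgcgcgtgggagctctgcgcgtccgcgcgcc
Celf1 held 4 matches and this Mbnl1 promoter 4, while the other Mbnl1 promoter (chr3:60472580-60472829) held 0. Across 32851 promoter windows of the same length, 32.7% held at least 1 match, and among the 13 promoters of matched members 6 did. Matches were not particular to the rising members. Ptbp2, with an NPC slope of 0.04, held the most (6), Mbnl2 held 1 and a Celf2 promoter held 3. Ptbp1, Nova1 and Srrm4 held 0. The Celf1 window had a GC content of 72.4% and 24 CpG dinucleotides, and the Mbnl1 windows had 73.6% with 33 and 38.0% with 1, where the median window had 6 CpG dinucleotides. A match describes letters and not a bound site, and the totals per gene do not say which Mbnl1 promoter was used.

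A wider list of 30 other regulators and cofactors held paralogs of the members and the ELAVL, MSI, RBM, KHDRBS and RAVER genes. Of these, 25 were tested in mESC and 28 in NPC. In mESC 0 of 25 were called in the genotype comparisons and the trend with limma (up to 4 at an unadjusted p under 0.05, in Q20 against WT) or edgeR. With replicate number as a block, 3 of 25 were called in Q20 against WT (Esrp2, Rbm24 and Rbm47), and 0 in the others. The share of all genes called with the block is not given here. Between mESC replicate numbers 7 of 25 were called, beside 43.3% of all genes, all lower in number 2, with a median of -0.15 beside 0.00 over all genes. The largest was Raver2, a PTBP1 cofactor, at -1.46 (SE 0.13, limma adjusted p = 0.000202).

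In NPC the wider list had 1 of 28 called in KO against WT, 10 in Q20 against WT (8 higher, 2 lower), and against Q20 it had 7 in Q50 (all lower), 12 in Q92 (5 higher, 7 lower) and 15 in Q111 (4 higher, 11 lower). Of all genes 1.42, 14.5, 18.8, 25.8 and 28.3% were called in the same 5 comparisons. Its median change was -0.02 in KO, 0.28 in Q20, -0.07 in Q50, 0.19 in Q92 and -0.24 in Q111, beside -0.02 to 0.06 over all genes. Khdrbs2, a neuronal STAR-family regulator, was the KO call: it stood at 22.0 and 21.5 CPM in KO against 0.963 and 0.0736 CPM in WT. Its change was 3.97 (SE 0.31, limma adjusted p = 0.00116), and edgeR did not call it. Q20 also held more Khdrbs2 than WT (2.10, SE 0.31, limma adjusted p = 0.00240), and the neuronal genes Celf4 (1.90), Elavl4 (1.65) and Celf3 (1.23) were higher there too. Celf4 was not confined to neural cells. It stood at 20.2 and 20.2 CPM in mESC WT and at 5.80 and 6.55 CPM in NPC Q20, each cell type being normalised separately.

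Against Q20 these neuronal genes were lower in Q50, by values of -1.82 for Elavl4, -1.69 for Khdrbs2, -1.59 for Celf4 and -1.48 for Celf3. In Q92, Khdrbs2 (-2.60), Elavl3 (-2.35) and Celf4 (-1.64) were lower and Rbm24, a muscle and heart regulator, was higher (2.18, SE 0.35, limma adjusted p = 0.00288). Elavl4 did not stay low in Q92, at 45.8 and 50.1 CPM against 25.6 and 14.9 CPM in Q20. In Q111, Rbm20 (-2.19, SE 0.19, limma adjusted p = 0.000100), Khdrbs2 (-2.17) and Celf3 (-1.56) were lower. Mbnl3, the third muscleblind paralog, was higher in Q111, at 5.86 and 5.07 CPM against 0.795 and 0.804 CPM in Q20 (1.84, SE 0.18, limma adjusted p = 0.000208). The reference mattered here too. With WT in place of Q20, none of the 4 genes named for Q50 was called (Elavl4 -0.18, Celf3 -0.25, Khdrbs2 0.40 and Celf4 0.31, the last pair now above 0). In Q92 the calls of Khdrbs2 (-0.50) and Celf4 (0.26) were lost and that of Elavl3 was not (-1.85, limma adjusted p = 0.0207), and in Q111 those of Khdrbs2 (-0.08) and Celf3 (-0.32) were lost.

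Of 8 neuron markers, 5 were higher in both Q20 libraries than in every other NPC library. Stmn2 stood at 103 and 128 CPM in Q20, at 5.51 and 5.24 in Q111, and at most at 0.356 CPM in the other genotypes. Dcx stood at 38.6 and 52.2 CPM in Q20 and Tubb3 at 32.6 and 121, where the other genotypes reached at most 9.03 and 20.4 CPM. The other two, Snap25 (1.43 and 2.02 CPM in Q20) and Rbfox3 (1.59 and 1.54), were low. Stmn2 and Tubb3 were also present in mESC, at medians of 286 and 98.3 CPM. Map2 (599 and 646 CPM) and Gap43 (52.0 and 51.4) were lowest in Q20. The sum of the 8 genes did not follow the markers that were highest in Q20, since Map2, at 599 to 1593 CPM over all NPC libraries, made up most of it. The sum was 1447 to 1718 CPM in WT, 1453 to 1506 in KO, 837 to 1013 in Q20, 1162 to 1439.6 in Q50, 1021 to 1154 in Q92 and 1083 to 1107 in Q111. The part of these markers in the changes of the neuronal regulators was not tested.

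Over CAG length 9 of 28 wider genes were called in NPC, beside 22.0% of all genes, 5 rising and 4 falling, with a median slope of -0.01 beside 0.04 over all genes. Mbnl3 rose by 2.02 (SE 0.45, limma adjusted p = 0.0172), though not at each step. Its Q50 pair (0.251 and 0.235 CPM) lay below its Q20 pair (0.795 and 0.804). Khdrbs2 fell, at -2.23 (SE 0.48, limma adjusted p = 0.0146), as did Srrm3 at -1.43 (SE 0.31, limma adjusted p = 0.0162). Msi1, a progenitor RNA-binding protein, fell too, at -1.34 (SE 0.23, limma adjusted p = 0.00629). Srrm3 is the paralog of Srrm4. Without either Q20 library the calls of Khdrbs2 (limma adjusted p = 0.0663 to 0.0704) and Srrm3 (0.0737 to 0.0770) were lost, and without either Q111 library that of Mbnl3 (0.0582 to 0.0587). Without both Q20 libraries 3 of 28 were called, beside 14.2% of all genes. Mbnl3 (3.51) and Msi1 (-1.72) were among them, while Khdrbs2 (-0.92) and Srrm3 (-0.58) were not. EdgeR called Khdrbs2 neither in the trend nor in Q20 against WT or Q50 against Q20. The test for any difference among the lines called 16 of 28, beside 41.0% of all genes, and the slope difference between cell types 0 of 24 with limma (4 at an unadjusted p under 0.05). Without both NPC Q20 libraries these counts were 7 of 28 and 1 of 24, beside 21.1% and 4.19% of all genes. The slope difference called then was that of Mbnl3 (3.29 on the extended scale, SE 0.42, limma adjusted p = 0.00128).

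The second list held 16 genes whose transcripts contain exons known to be controlled by these factors, such as Gabbr1, Src, Fgfr2 and Cd44. Their totals do not measure the exons. In mESC 0 of 16 were called between genotypes or over CAG length with limma (up to 5 at an unadjusted p under 0.05, in Q20 against WT) or edgeR, and 6 of 16 (37.5%, beside 43.3% of all genes) between replicate numbers (5 higher in number 2, 1 lower), the largest being Cd44 (0.91), Gabbr1 (0.67), Foxp1 (0.63) and Enah (0.60). With replicate number as a block, 3 of 16 were called in Q20 against WT in mESC (Dlg4, Gabbr1 and Cd44), and 0 in the other genotype comparisons. No share of all genes called with the block is given beside this count. In NPC 0 of 16 were called in KO against WT (3 at an unadjusted p under 0.05, 0 with edgeR), 2 in Q20 against WT, and against Q20 they numbered 1 in Q50, 4 in Q92 and 5 in Q111. The shares of all genes called in these 5 comparisons were 1.42, 14.5, 18.8, 25.8 and 28.3%. The list's median changes were -0.23, -0.24, 0.16, -0.03 and -0.20 in that order. The 2 called in Q20 against WT were Gabbr1 (1.76) and Dab1 (-0.91). Both calls were lost when WT replicate 2 or either Q20 library was left out, with limma adjusted p-values of 0.0737 to 0.179 for Gabbr1 and 0.100 to 0.173 for Dab1, and edgeR did not call Gabbr1.

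Gabbr1, a GABA-B receptor subunit and PTBP target, stood at 238 and 219 CPM in Q20, 52.1 and 55.6 in Q50, 53.2 and 55.0 in Q92, and 20.7 and 20.5 in Q111. Its change against Q20 was -2.06 in Q50, -2.06 in Q92 and -3.41 in Q111. Leaving out any 1 of the 4 libraries compared ended the Gabbr1 call in Q50 (limma adjusted p = 0.0768 to 0.0956) and in Q92 (0.0628 to 0.0806). Fgfr2 holds mutually exclusive exons that follow ESRP and RBFOX proteins. It stood at 21.6 and 20.8 CPM in Q20, 24.0 and 24.8 in Q50, 6.85 and 7.22 in Q92, and 2.60 and 2.52 in Q111. Its Q50 pair thus lay above its Q20 pair. Its change was -1.46 in Q92 and -2.64 in Q111. Foxp1 (-1.27) and Flna (0.74) were the other calls in Q92. The Foxp1 call ended without any 1 of the 4 libraries compared (limma adjusted p = 0.0967 to 0.153), and that of Flna ended without Q92 replicate 1 (0.0506). Cd44 (2.24), Src (-1.10) and Dab1 (0.90) were the other calls in Q111. The Cd44 call ended without Q20 replicate 2 or Q111 replicate 2 (limma adjusted p = 0.0501 to 0.0506). With WT in place of Q20 the calls of Gabbr1 in Q50 and Q92, Foxp1 in Q92 and Cd44 in Q111 were lost.

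Over CAG length 5 of 16 fell and 0 rose in NPC, where 22.0% of all genes were called, with a median of -0.04 beside 0.04. The slope was -2.83 for Gabbr1 (SE 0.47, limma adjusted p = 0.00555), -2.72 for Fgfr2 (SE 0.44, limma adjusted p = 0.00499) and -0.87 for Src. Src lost its call without either Q20 or either Q111 library (limma adjusted p = 0.0863 to 0.135). Without both Q20 libraries 2 of 16 were called, beside 14.2% of all genes. Fgfr2 was among them (-4.12, SE 0.36, limma adjusted p = 0.00749), and Gabbr1 (-1.67, SE 0.65) and Src (-0.63) were not. The test for any difference among the lines called 6 of 16 (37.5%), beside 41.0% of all genes. The slope differed between cell types for 2 of 16, beside 4.86% of all genes, Gabbr1 at -3.17 (SE 0.72, limma adjusted p = 0.0207) and Fgfr2 at -2.46 (SE 0.55, limma adjusted p = 0.0206). The Gabbr1 difference was not called without mESC Q20 replicate 1 or either NPC Q20 library (limma adjusted p = 0.0610 to 0.0751), nor that of Fgfr2 without mESC Q20 or Q111 replicate 1 or either NPC Q111 library (at most 0.0512). Without both NPC Q20 libraries, on the same extended scale, the difference was -3.87 for Fgfr2 (SE 0.54, limma adjusted p = 0.00199) and -2.02 for Gabbr1 (SE 0.92, limma adjusted p = 0.256).

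For members with an SD of at least 0.5 over the 12 libraries of a cell type, the tested genes with the most similar profile were found by the root mean square (RMS) difference of centred log2(CPM + 1) values. In NPC, Mbnl1 was followed most closely by Ak6 (RMS 0.12) and Prep (0.14), and Celf2 by Lca5 (0.24) and Sgcz (0.24). Nova1 had no such close neighbour, with Gna13 at 0.47 and Plpp4 at 0.54, against its own SD of 0.95. In mESC, Esrp1 was followed by Cyp2j13 (0.19) and Cyp2j6 (0.24), Mbnl2 by Abcc4 (0.25) and Mroh2a (0.32), Celf2 by Plch1 (0.29) and Fads2 (0.31), and Srrm4 by Epha7 (0.34) and Fbxw4 (0.34). The replicate number enters each of these mESC profiles.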

How the data were processed

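Gene expression was measured by paired-end RNA sequencing of 24 libraries, 2 per genotype and cell type. Per the submitters' processing notes, CASAVA 1.8, STAR and the genome build GRCm38.p6 were used; how reads were counted, and whether by strand, is not given in the sources used here. The authors deposited 1 table per cell type of a normalised signal named CPM, whose columns sum to 900342 to 1080734 and not to a common total. In every column 100% of the deposited values were whole multiples of 1 step (within 0.01 of a step plus 1e-06 of the value), which gave the reads behind them.

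The tests ran on log2(CPM + 1) in limma 3.58.1 (R 4.3.3), as a linear model with a variance trend and two-sided tests, over 13916 genes in mESC and 13206 in NPC with at least 1 CPM in at least 2 libraries. The 6 groups of a cell type shared 1 estimate of spread. The trend used 92 repeats for the third line. Adjusted p-values are Benjamini-Hochberg values over all tested genes of a comparison. The model was also run on simulated counts with known changes, and the outcome is not given here. Those counts held no effect of replicate number. They therefore cannot show how the main fit handles the one seen in mESC. The alternatives were a pseudocount of 0.5, 2 other filters (none, or a mean CPM of at least 5), median-of-ratios scaling (DESeq2 1.42.0), edgeR 4.0.16 on the recovered reads, a replicate block, other sets of libraries, WT as reference, 89 repeats, 1 mean per line, and leaving out each library.

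Whether replicate numbers pair libraries was checked by correlating replicate differences between the 15 pairs of genotypes. In mESC the correlations ran from 0.250 to 0.547, all above 0.1, so the numbers were taken to pair the libraries; the labels give no source for this pairing. In NPC they ran from -0.0495 to 0.467, with 3 of 15 above 0.1, and the numbers were not taken to pair across the 6 genotypes; the highest, 0.467, was that of WT with KO.

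Positions, exons and exon sequences came from GENCODE M21, and promoters from RefSeq. The named genes were the members, at most the 4 largest called changes of at least 1 (log2) in the wider list, at most the 4 largest called changes in the list of genes with regulated exons, and the 2 most similar profiles. The members and lists were chosen with earlier results of these data known. The lists of cell type markers serve as description.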

Additional observations from a re-analysis of the deposited data

Results flagged for a closer look

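The slope over CAG length differed between NPC and mESC, by the interaction test over the 16 knock-in libraries, for 3 of the genes named. Mbnl1 was flagged by a slope difference of 1.30 (SE 0.34, limma adjusted p = 0.0395), rising in NPC. Gabbr1 was flagged by a difference of -3.17 (SE 0.72, limma adjusted p = 0.0207) and Fgfr2 by one of -2.46 (SE 0.55, limma adjusted p = 0.0206). With 1 mean value per line none of the 3 was called, and without both NPC Q20 libraries only Fgfr2 was.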

How the results depend on the processing

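Each cell type has 1 line per CAG length and 2 libraries per group, so a call rests on few libraries. Of 286 values of called members under the alternatives, 230 kept their call, 56 lost it and 0 changed direction. Of 527 such values of the named genes of both other lists, 441 kept their call, 83 lost it and 3 changed direction, all with WT as reference: Khdrbs2 (0.40) and Celf4 (0.31) in Q50, and Celf4 (0.26) in Q92.

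There were 216 values of counts of called members and of the Ptbp2 to Ptbp1 ratio without exon length. Of these, 169 were counts within 1.5 times the reported count, among them counts that stayed at 0. The share of all genes called is not given for the alternatives below, so their counts have no background beside them. The fits without both NPC Q20 libraries are the exception, with shares given above. With the replicate block, 1 mESC member was called in Q20 against WT, 1 in Q50 against Q20 and 1 for any knock-in difference, against 0 each, and in NPC, where the numbers were not taken to pair, 5 in Q111 against Q20 and, as without the block, 1 in KO against WT (Celf2), the genotypes whose replicate differences correlated most, at 0.467; the block moved no other count of members by over 1.5 times. Of the 16 target genes, the block left 2 called over CAG length in NPC and gave 2 in Q50 against Q20. With knock-in libraries alone, 5 mESC members differed between replicate numbers. EdgeR gave 0 in NPC KO and 0 in Q20 against WT. Fits to the 2 groups compared alone gave NPC counts of 0 for KO, 0 for Q20, 3 for Q50, 5 for Q92 and 6 for Q111. With WT as reference they were 0 for Q50 and 1 for Q111. No filter gave 2 for Q20 and 2 for Q50, a mean CPM of at least 5 gave 0 for Q20, and median-of-ratios scaling gave 0 for Q20 and 0 for the slope difference. With 1 mean per line the trend gave 0 and the slope difference 0. Without both NPC Q20 libraries, an alternative chosen after seeing the data, the test for any difference among the lines gave 2 and the slope difference 0.

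Leaving out 1 library at a time, the NPC counts ran from 0 to 3 for KO, 0 to 2 for Q20, 0 to 1 for Q50, 2 to 3 for Q92, 1 to 3 for Q111, 3 to 4 for any knock-in difference and 2 to 2 for the trend, and from 0 to 1 for the slope difference. The mESC counts stayed at 0. Without division by exon length, the median log2 ratio of Ptbp2 to Ptbp1 was -2.76 in mESC and -0.80 in NPC. The causes of these shifts were not tested. Srrm4 in NPC rests on few reads, 341 in all, at a median of 0.0937 CPM.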
